A study of Mus musculus with 17 samples.

Results

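The nuclear genes for subunits of the mitochondrial respiratory chain were followed in cells sorted from mouse lung tumors. They were taken by name, as genes whose symbol begins with Nduf and a subunit letter and number, is Sdha, Sdhb, Sdhc or Sdhd, begins with Uqcr, is Cyc1, begins with Cox and a subunit number and letter, or begins with Atp5, with pseudogenes left out. This gave 78 genes of the 17556 listed in any of the 3 tables used, 78 of 16410 in the tumor cell table, 77 of 13545 in the table of TRMs and 76 of 13407 in that of MDMs. Complex I held 35 of them, complex II 4, complex III 9, complex IV 13 and complex V 17. Ndufa4 and Ndufa4l2 were counted with complex IV, where the NDUFA4 protein is known to sit. The rule misses Cox4i1, Cox4i2 and Ndufab1, which are given apart, and takes in Atp5s and Atp5sl, of which the second is known as a complex I assembly factor and not a subunit of the synthase.

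The respiratory chain sits in the inner mitochondrial membrane. Complexes I (NADH dehydrogenase) and II (succinate dehydrogenase) pass electrons to ubiquinone, complex III passes them on to cytochrome c, and complex IV passes them to oxygen. Complexes I, III and IV pump protons, and complex V, the ATP synthase, uses the gradient to make ATP. The catalytic cores of complexes I, III and IV are built partly from proteins encoded in mitochondrial DNA, whereas complex II and the accessory subunits come from nuclear genes. In lung, alveolar macrophages and surfactant-making alveolar type 2 (AT2) cells are known for high mitochondrial activity, and neutrophils for low.

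KL mice carried Lkb1fl/fl, a floxed Lkb1 that Cre deletes, among the alleles that all groups share. KLG4 mice carried Gpx4m/m in addition, a Gpx4 allele with rox sites around part of its exons and a tamoxifen-activated Dre recombinase under a CAG promoter that becomes active only after Cre. Mice of both genotypes inhaled Ad-Cre, an adenovirus that brings Cre to any cell it infects, and then received tamoxifen, and cells were taken 10 weeks after Ad-Cre. Tumor cells, TRMs and MDMs, the last 2 being the macrophage populations under the abbreviations of the labels, were each profiled by poly(A) RNA sequencing in 2 KL and 2 KLG4 libraries. Tumor cells were described as EpCAM-positive cells without leukocyte and endothelial surface markers in most places of the paper, and as leukocyte-marker-positive in several places of its methods, cell sorting among them, and the gates of TRMs and MDMs were not given in the sources used here. Each of the 4 tumor cell libraries held both Xist, at 4.17 to 6.18 RPKM, and the Y-linked Eif2s3y, at 7.27 to 9.26 RPKM, whereas a legend of the study counts as many mice as libraries in each group, so which cells went into each library cannot be told from these sources. RPKM divide a gene's reads by its length and by the depth of the library.

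The libraries differed beyond the genotype. Depth, recovered from the steps between RPKM values, was 9140750 to 36617000 counted reads. Mitochondrial genes took 14.8% and 14.7% of the reads in the KLG4 tumor cell libraries against 7.39% and 8.27% in KL, 2.95% and 5.78% in KLG4 TRMs against 31.5% and 22.3% in KL, and 0.923% and 1.33% in KLG4 MDMs against 2.76% and 7.31% in KL. Gpx4, counted over all its exons, stood at 56.4 and 61.9 RPKM in KLG4 tumor cells against 94.9 and 76.8 in KL, at 53.8 and 57.0 against 89.8 and 88.2 in TRMs, and at 93.6 and 97.7 against 44.9 and 71.3 in MDMs, where the libraries labelled KLG4 were higher. The TRM libraries held alveolar macrophage markers (summed RPKM of 7 genes, 8428 and 8276 in KL and 12702 and 11839 in KLG4). Of 8 AT2 markers in TRMs 6 were lower and 2 higher in KLG4 (summed RPKM 171 and 182 in KL, 35.9 and 69.4 in KLG4). All 8 macrophage markers were higher in KLG4 TRMs. The part of these markers' cells in the TRM values was not tested. The MDM libraries held more RNA of 6 neutrophil markers, among them S100a9, Csf3r and Cxcr2 (summed RPKM 10674 to 23594), than of 8 macrophage markers (1261 to 2989), and the monocyte gene Ly6c2 was below 1 RPKM in all 4, so they are called MDMs only as their labels do. In TRMs the sexes were split by genotype, with Eif2s3y at 0 in both KLG4 libraries and at 12.3 and 14.7 RPKM in KL. In MDMs Xist was at 0.839 RPKM in KL replicate 2 and at 19.4 to 21.8 in the 3 others.

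Subunit genes were among the abundant transcripts of all 3 populations. Summed over the family, RPKM were 4222 and 3372 in KL tumor cells, 3935 and 3993 in KL TRMs, and 2043 and 2823 in KL MDMs. Among KL libraries those of MDMs were the lowest, and KL MDM replicate 2, at 2823, stood apart from the 3 others of its population (1951 to 2068). The tables were normalized separately, so levels set across populations are given without a test. Levels of single genes kept a similar order in all groups. The lowest Spearman correlation between mean levels was 0.89, for KLG4 MDMs against KLG4 tumor cells. Across the 76 genes listed in all 3 tables, the mean log2 levels of KL tumor cells and KL TRMs correlated with r = 0.92, and those of KL TRMs and KL MDMs with r = 0.96, values that share gene length and counting.

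Uqcrb, a small subunit of complex III that binds ubiquinone, was the most abundant member, at 454 and 394 RPKM in KL tumor cells and 262 and 254 in KLG4. It reached 619 and 605 RPKM in KL TRMs and 480 and 596 in KLG4, and 169 and 379 RPKM in KL MDMs and 165 and 176 in KLG4. Atp5h, a peripheral stalk subunit of the ATP synthase, led complex V at 209 and 189 RPKM in KL tumor cells and 174 and 187 in KLG4. Complex I was led by Ndufs4, at 137 and 99.1 RPKM in KL tumor cells, and complex IV by Cox5b, at 140 and 101. At the other end, Ndufa11, Ndufb2, Ndufb5 and Cox6b2 stayed below 7 RPKM in every library, and Atp5g1 between 0.235 and 1.68. Within complex I, whose subunits are assembled in near-equal numbers, Ndufb2 was at 1.93 and 1.71 RPKM in KL tumor cells beside 137 and 99.1 for Ndufs4. Many genes of this family have near-identical processed copies, and their levels are uncertain where reads could be split.

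In tumor cells most subunit genes were lower in KLG4 than in KL. Of 77 members that passed the filter on low values, 41 were called lower (limma on log2(RPKM + 0.1), adjusted p under 0.05), against 19.6% of the 13770 genes tested, and 1 was called higher, against 20.6% of all genes. Both KLG4 libraries lay below both KL libraries for 66 of the 77, against 42.2% of all genes tested, and above both for 2, against 32.5%. The median log2 difference of the members was -0.58, beside -0.09 over all genes tested. All KLG4 minus KL differences are on the log2(RPKM + 0.1) scale, and Atp5g1, at 1.12 and 0.956 RPKM in KL and 0.623 and 0.550 in KLG4, was the member left untested.

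**Figure D1:**
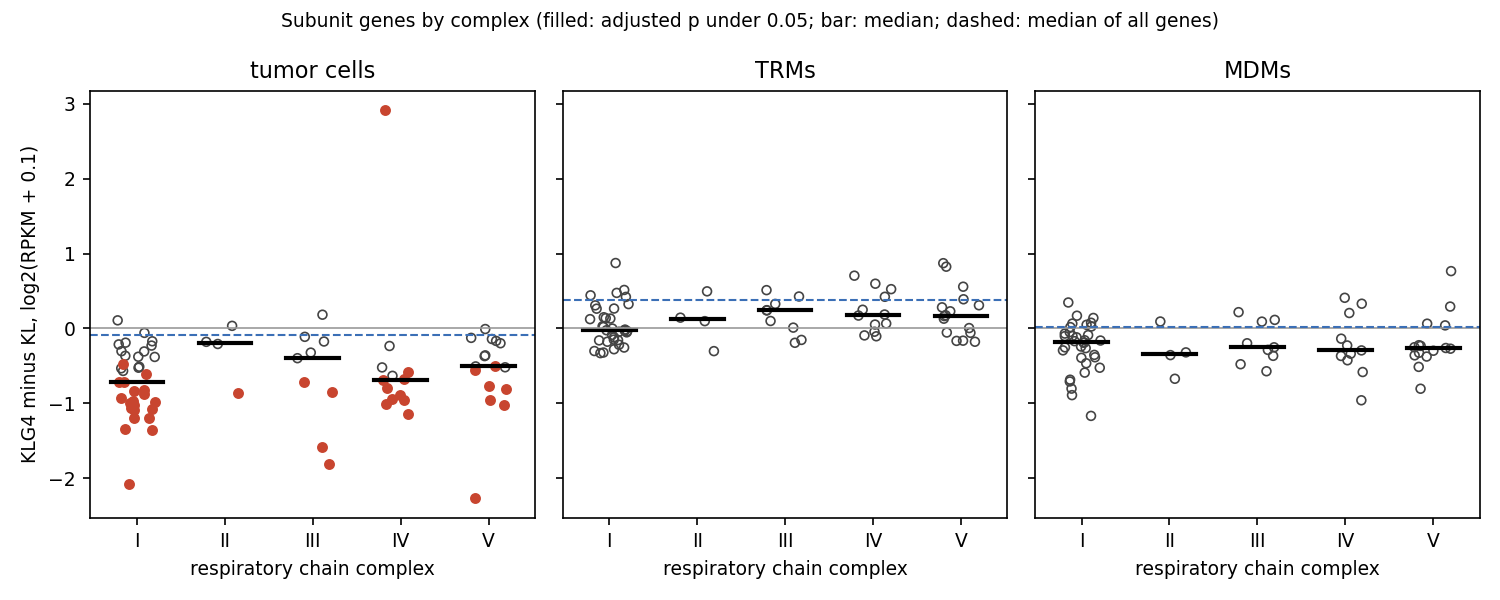
Difference between KLG4 and KL in log2(RPKM + 0.1) for each tested subunit gene, by complex, in tumor cells, TRMs and MDMs. Filled points were called at an adjusted p under 0.05, bars are medians, and the dashed line is the median of all genes tested. In tumor cells 41 points are called below 0 and 1 above (Ndufa4l2, at 2.92, a size that the pseudocount sets over KL levels of 0.341 and 0 RPKM), whereas no point is called in the other 2 panels.

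Complex I had 20 of 35 tested subunits called lower. Ndufa12, an accessory subunit of the arm that reaches into the matrix, was at 121 and 75.9 RPKM in KL and 22.8 and 22.2 in KLG4. It fell 4.24-fold (log2 -2.08 ± 0.23 SE, adjusted p = 0.00186), and the KLG4 libraries were far below both KL libraries although these differed between themselves. Ndufs6, a zinc-binding accessory subunit, was at 77.6 and 59.1 RPKM against 29.2 and 24.0 (log2 -1.35, adjusted p = 0.00362). Ndufs4, an accessory subunit whose loss is known as a cause of complex I deficiency, stood at 137 and 99.1 against 69.3 and 72.4 RPKM (log2 -0.72, adjusted p = 0.0264).

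The 7 core subunits of complex I, which carry the flavin and the iron-sulfur clusters, had a smaller median difference than the 28 accessory ones. Of the core 2 were called lower, Ndufs3 (log2 -0.93) and Ndufs8 (log2 -0.84), with a median of -0.38. That is 28.6% of the core, beside 19.6% of all genes tested. Of the accessory subunits 18 were called lower (64.3%), with a median of -0.77. Ndufs1, the largest core subunit, was at 6.56 and 7.36 RPKM in KL and 5.95 and 5.87 in KLG4 (log2 -0.23, adjusted p = 0.27). The division into core and accessory subunits is that of textbooks, was applied after the values had been seen, and was given no test.

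Complex II had the smallest median difference, -0.19, with 1 of 4 members called lower (25%, beside 19.6% of all genes tested). Sdha, the flavoprotein that oxidizes succinate, was at 43.2 and 47.0 RPKM in KL and 37.7 and 40.3 in KLG4 (log2 -0.21, adjusted p = 0.21), and Sdhb, the iron-sulfur subunit, at 14.2 and 13.2 against 11.8 and 16.7 (log2 0.03, adjusted p = 0.91). Sdhd, a membrane anchor, overlapped at 26.18 and 17.65 against 20.02 and 17.96 RPKM. The other anchor, Sdhc, fell, from 14.6 and 11.1 to 6.59 and 7.31 RPKM (log2 -0.87, adjusted p = 0.0158).

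Of the 9 members of complex III 4 were called lower (44.4%, beside 19.6% of all genes tested). Uqcrh, the hinge protein next to cytochrome c1, dropped from 276 and 172 RPKM to 64.6 and 59.8 (3.50-fold, log2 -1.81 ± 0.24 SE, adjusted p = 0.00318). Uqcr11 dropped from 174 and 115 to 43.5 and 51.1 RPKM (log2 -1.59, adjusted p = 0.00404), and Uqcr10 and Uqcrb were called lower as well. These are small subunits, a grouping made after the values were seen, and Uqcrq, also small, overlapped at 32.0 and 26.8 against 26.4 and 27.7 RPKM (log2 -0.11). The others were not called. Cyc1, the cytochrome c1 that passes electrons to cytochrome c, was at 15.3 and 14.0 RPKM in KL and 15.6 and 17.6 in KLG4 (log2 0.18, adjusted p = 0.33), and Uqcrc1, a core protein, at 27.8 and 28.3 against 24.6 and 25.1 (log2 -0.18). Uqcrc2, the other core protein, and Uqcrfs1, the Rieske iron-sulfur protein, were lower without overlap (log2 -0.40, adjusted p = 0.063, and log2 -0.32, adjusted p = 0.083).

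Complex IV had the largest share called lower, 9 of 13. Cox5b, a zinc-binding subunit, was at 140 and 101 RPKM in KL and 57.9 and 60.7 in KLG4 (log2 -1.004 ± 0.18 SE, adjusted p = 0.00898). Ndufa4 fell from 25.1 and 19.3 to 10.4 and 9.46 RPKM (log2 -1.14), Cox8a from 27.5 and 19.6 to 10.6 and 13.4 (log2 -0.96), and Cox7a2 from 10.5 and 8.55 to 4.86 and 5.26 (log2 -0.89). Cox7b, Cox7a2l, a supercomplex factor, and Cox6b1 were called lower by less, at log2 -0.68, -0.69 and -0.58. Cox6a1 was not called (29.4 and 21.0 against 16.0 and 18.7 RPKM, log2 -0.52, adjusted p = 0.09).

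Complex V held both the member that fell most and Atp5a1, whose difference was the closest to 0 of the 77 tested. Atp5k, subunit e of the membrane part, which serves in dimer formation, was at 47.4 and 27.9 RPKM in KL and 7.36 and 7.55 in KLG4, a 4.82-fold fall (log2 -2.27 ± 0.26 SE, adjusted p = 0.00213). Atp5a1 and Atp5b encode the alpha and beta subunits of the catalytic head. Atp5a1 was at 123 and 130 RPKM in KL and 133 and 119 in KLG4 (log2 -0.01 ± 0.12 SE), and Atp5b at 148 and 157 against 134 and 137 (log2 -0.17 ± 0.11 SE, adjusted p = 0.26). Of the 16 members tested 7 were called lower, among them Atp5j (144 and 107 against 61.3 and 61.0 RPKM), Atp5e, Atp5g2 and Atp5g3. Atp5h, the most abundant of complex V, was not (log2 -0.14, adjusted p = 0.38).

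**Figure D2:**
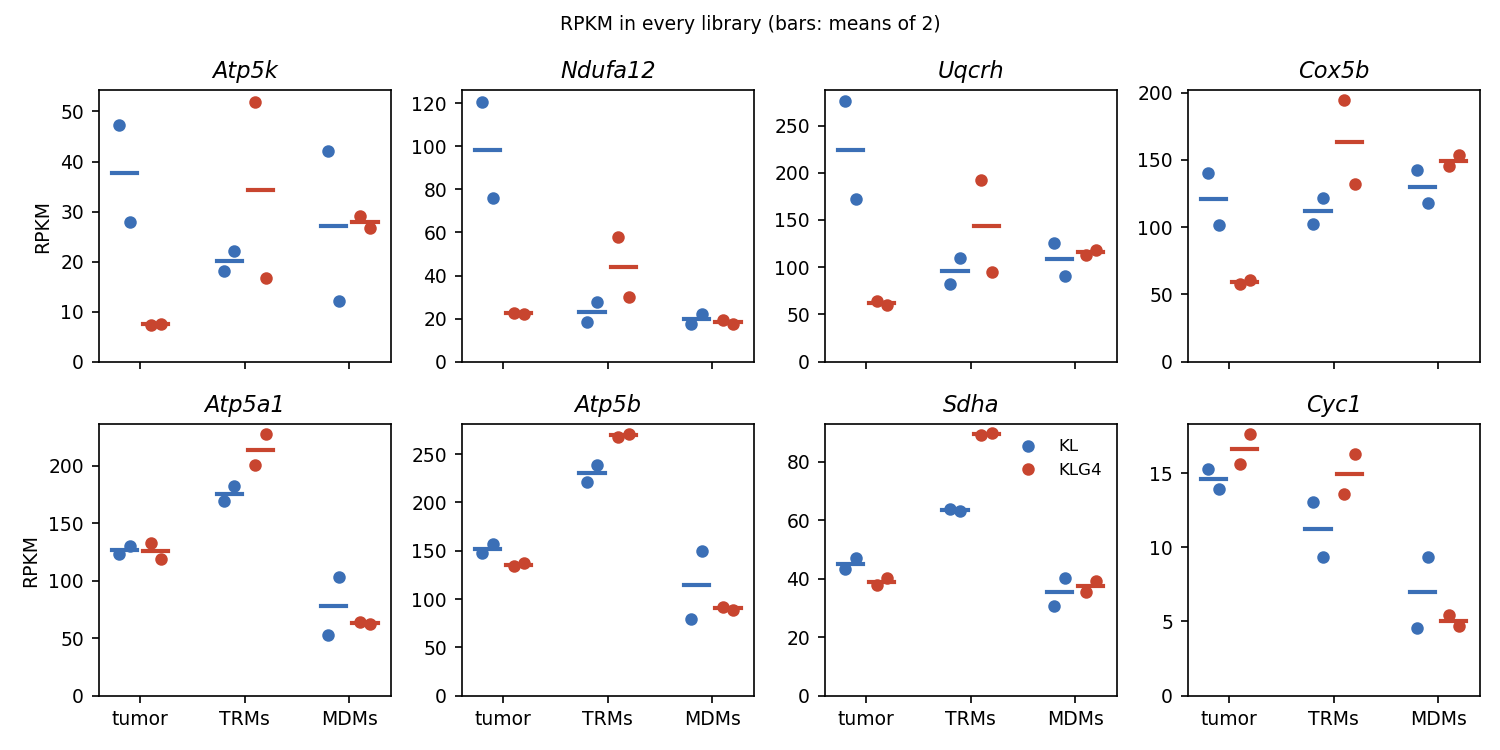
RPKM of 8 subunit genes in each library of tumor cells, TRMs and MDMs, with KL in blue and KLG4 in red, each panel from 0 and bars at the means of 2 libraries. Atp5k, Ndufa12, Uqcrh and Cox5b lie lower in both KLG4 tumor cell libraries, whereas Atp5a1 overlaps between the genotypes there (123 and 130 against 133 and 119 RPKM). In TRMs the 2 KLG4 libraries differ widely for Atp5k, at 52.0 and 16.7 RPKM.

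Summed over each complex, RPKM in tumor cells were lower in KLG4 for all 5, and the order of the complexes depends on the measure. Complex III was at 1061 and 822 in KL and 492 and 494 in KLG4 (ratio 0.524), complex IV at 588 and 437 against 287 and 300 (0.572), and complex I at 1536 and 1195 against 800.4 and 796 (0.585). Complex V was at 938 and 829 against 681 and 687 (0.775), and complex II at 98.3 and 88.9 against 76.1 and 82.3 (0.846). These sums weigh the abundant members most. By the median log2 difference over tested members, complex I was at -0.71, complex IV at -0.69, complex V at -0.51, complex III at -0.40 and complex II at -0.19, so complex III had the lowest ratio of sums but only the fourth lowest median. Every KLG4 sum was below every KL sum, which gives an exact permutation p = 0.333 (two-sided) for each, the smallest that 2 against 2 libraries allow. Complex V made up 22.2% and 24.6% of the family's RPKM in KL and 29.2% and 29.1% in KLG4, and complex III 25.1% and 24.4% against 21.1% and 20.9%.

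**Figure D3:**
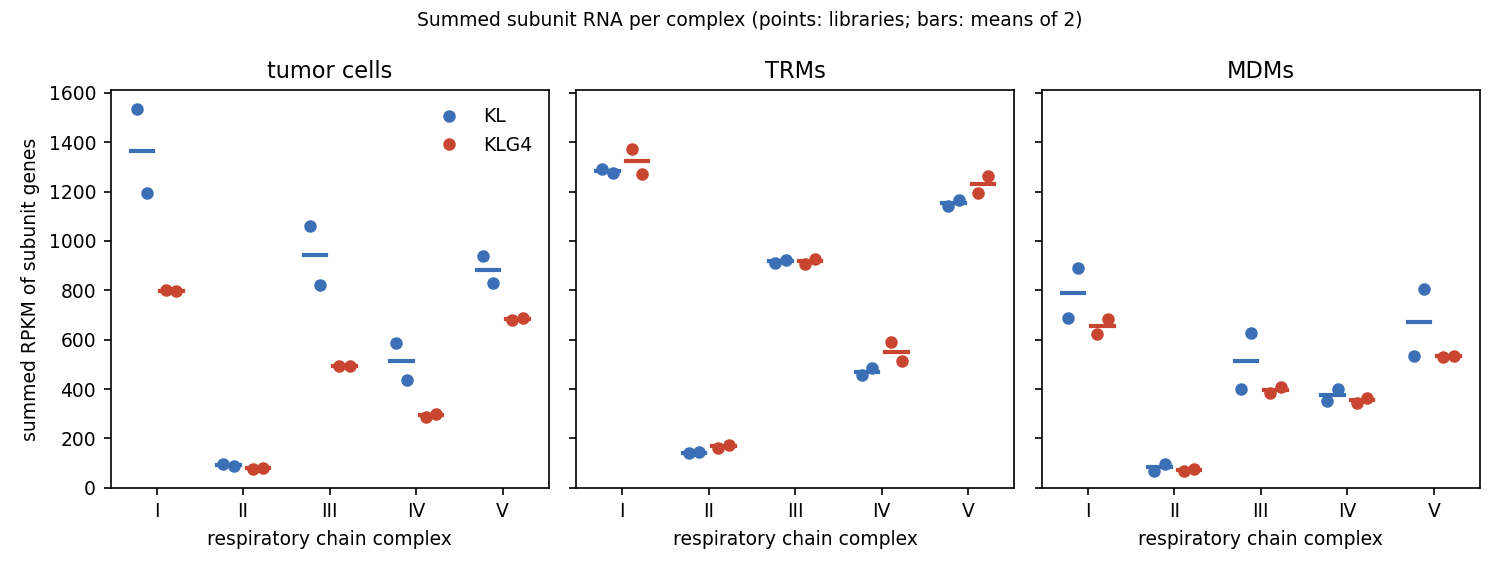
Summed RPKM of the subunit genes of each complex in each library, with bars at the means of 2 libraries. In tumor cells all 5 KLG4 sums lie below both KL libraries, with complex III at 492 and 494 against 1061 and 822. In MDMs 1 KL library lies above the other 3 in each complex.

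These calls rest on the closeness of the KLG4 pair. The chi-square between the 2 KLG4 tumor cell libraries was 3.33 per member, against 77.2 between the 2 KL libraries. With 1 library of a genotype left out, the spread comes from the pair of the other genotype alone. Without KLG4 replicate 1, 4 members were called lower (Atp5k, Ndufa12, Ndufs6 and Uqcrh), 5.19% of those tested beside 2.89% of all genes. Without KLG4 replicate 2 also 4 were (Atp5k, Ndufa12, Ndufb4 and Uqcr11), beside 2.72% of all genes, while all 41 kept their direction. P-values measure only the spread between these libraries, which may be technical.

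Markers of other cells moved with the genotype in tumor cells. The summed RPKM of 6 leukocyte markers was 14.3 and 17.95 in KL and 195 and 195 in KLG4, that of 6 neutrophil markers 189 and 293 against 2338 and 2242, and that of 6 fibroblast markers 10.6 and 15.7 against 369 and 369, with all 6 called higher in each list. The 8 AT2 markers were at 3623 and 4079 against 1254 and 1270, and 6 epithelial markers at 8413 and 6250 against 3608 and 3626, with all called lower. In contrast, 6 markers of ciliated cells were at 618 and 841 against 768 and 750, with none called. Of 6 markers of alveolar type 1 cells 5 were called lower and 1, Pdpn, higher. No marker of the leukocyte, neutrophil or fibroblast lists was below 1 RPKM in all 4 libraries. Their part in the lower level of the subunit genes was not tested, and fewer cells of a type and less RNA per cell cannot be told apart in bulk samples.

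Among the members, the difference in tumor cells went with transcript length. The members are short, with a median of 744 bases against 2300 over all genes tested. Of 11 members under 500 bases 10 were called lower (all genes of that length, 23.7%), of 23 between 500 and 700 bases 10 (29.5%), of 16 between 700 and 1000 bases 12 (30.2%), and of 21 between 1000 and 2000 bases 8 (23.8%). Of the 5 members of 2000 bases or more 1 was called lower, Ndufa10, against 15.3% of all genes. Across 76 members the log2 difference correlated with log10 length at r = 0.35 (Spearman 0.40), against -0.06 (Spearman 0.11) across all 13385 genes with a length, given as a description over genes that share their libraries. Within KL, replicate 1 minus replicate 2 also correlated with log10 length, at r = -0.35 (Spearman -0.39) across the members. Across all genes that correlation was -0.18 (Spearman -0.35). With the trend on transcript length removed from each library, an alternative added after the data were seen, 29 members were called lower and their median was -0.32 beside 0.01 for all genes.

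The 3 members that fell most in tumor cells also differed between the 2 KLG4 TRM libraries. Among KLG4 TRMs Atp5k was at 52.0 RPKM in replicate 1 and 16.7 in replicate 2, Uqcrh at 192 and 95.4, and Ndufa12 at 58.0 and 29.8. Across 75 members the difference between genotypes in tumor cells and the difference between the 2 KLG4 TRM libraries, which share no sample, correlated at r = -0.74, against -0.12 over all 10219 genes tested in both. In KL MDMs Atp5k was at 42.2 and 12.2 RPKM and Uqcrh at 126 and 91.2, whereas Ndufa12 went the other way, at 17.4 and 22.3. The correlation with the difference of those 2 libraries was -0.55 over 73 members, against 0.06 over all 9621 genes tested in both. The correlation of the members with the difference of the 2 KLG4 MDM libraries was 0.09, and that with the difference of the 2 KL TRM libraries was 0.20. What lies behind these correlations was not tested.

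**Figure D4:**
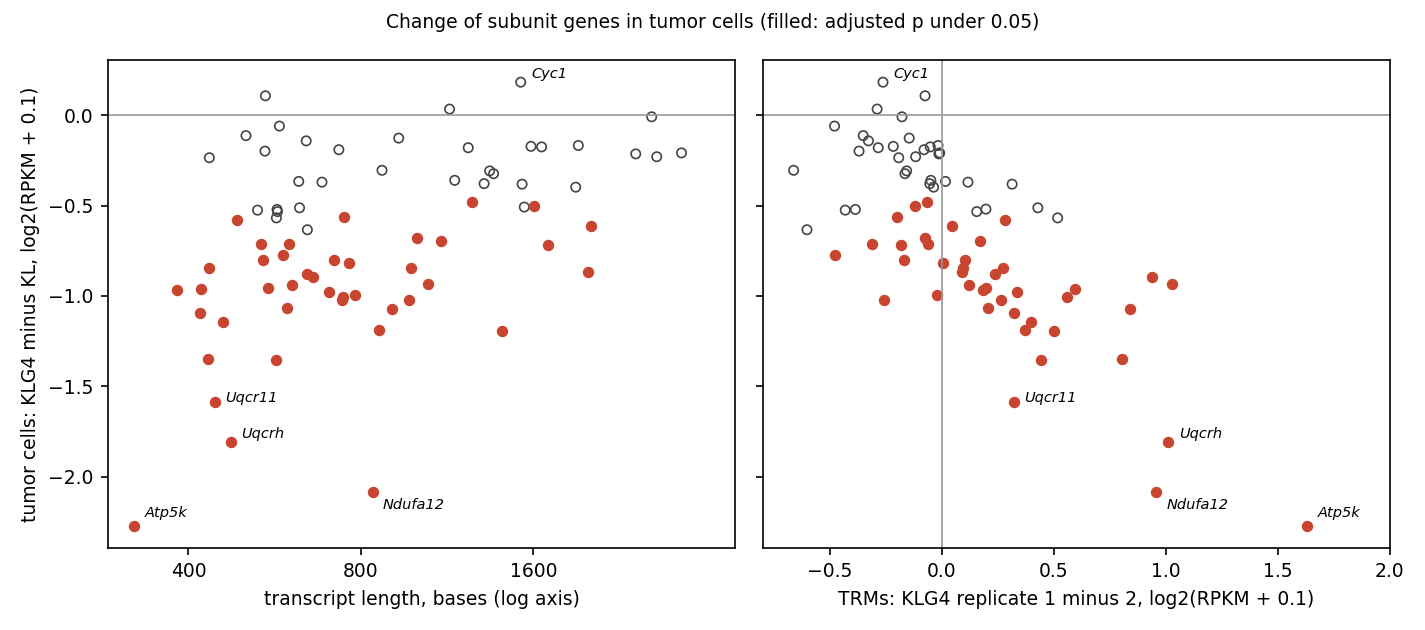
Difference between KLG4 and KL tumor cells for each subunit gene against its transcript length (left, log axis, Ndufa4l2 left out) and against the difference between the 2 KLG4 TRM libraries (right). Filled points were called at an adjusted p under 0.05. Atp5k, Ndufa12 and Uqcrh lie lowest in both panels, and Atp5k lies farthest to the right in the right panel, where the correlation is -0.74 over 75 genes.

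In TRMs no member was called in either direction, against 0.437% of 10990 genes called lower and 1.36% called higher, and 4 of 76 members had an unadjusted p under 0.05, against 28.3% of all genes. The KLG4 libraries lay above both KL libraries for 23 members, against 53.7% of all genes tested, and below both for 9, against 8.95%. Of 75 members tested in both populations 20 lay without overlap in opposite directions in tumor cells and TRMs, against 24.5% of all genes. The median of the members was 0.10, beside 0.38 over all genes. Scaling to reads outside mitochondrial genes took the median of all genes to 0.00 and that of the members to -0.29, so the sign of the members' median depends on the scaling. On either scale the median of the members lay below that of all genes.

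Sdha was the clearest single difference, at 63.8 and 63.2 RPKM in KL and 89.1 and 89.8 in KLG4 (log2 0.49 ± 0.15 SE, adjusted p = 0.11). With scaling to reads outside mitochondrial genes its log2 difference was 0.10, whereas it was the 1 member called higher when reads recovered from the RPKM were tested with limma-voom (adjusted p = 0.0487). Its partner Sdhb was at 23.0 and 22.9 against 16.8 and 20.5 RPKM (log2 -0.30, adjusted p = 0.33). Atp5a1 was at 169 and 183 RPKM against 201 and 227, and Atp5b at 221 and 239 against 268 and 271, with no overlap and no call.

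Among the other members at the ends of the range with a group mean of at least 5 RPKM, none was called. Ndufa12 was at 18.7 and 27.6 RPKM in KL and 58.0 and 29.8 in KLG4 (log2 0.87 ± 0.36 SE, adjusted p = 0.18), and Atp5e, the epsilon subunit, at 4.22 and 9.35 against 14.2 and 9.40 (log2 0.87, adjusted p = 0.23). Atp5e was called higher without KL replicate 2 (log2 1.44, adjusted p = 0.0356), a fit in which the lone KL library is assumed to vary like the KLG4 pair and 20.1% of all genes were called higher and 1.59% lower. Cox7a2 overlapped at 5.09 and 3.59 against 9.77 and 5.05 RPKM. Ndufa5 was lower without overlap, at 79.7 and 77.1 against 67.2 and 58.4, and Ndufs7 overlapped at 14.3 and 9.93 against 7.78 and 12.4. Below that level Atp5sl was at 1.85 and 2.39 RPKM against 4.08 and 3.55 (log2 0.82, adjusted p = 0.14).

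By complex, the ratios of TRM sums lay between 1.00 and 1.19. Complex I was at 1290 and 1275 in KL and 1372 and 1273 in KLG4 (ratio 1.03), complex III at 911 and 923 against 909 and 927 (1.00). Complex V was at 1140 and 1165 against 1196 and 1263 (1.07), complex II at 139 and 143 against 162 and 173 (1.19) and complex IV at 455 and 487 against 590 and 512 (1.17), and in these 3 both KLG4 libraries were above both KL ones (exact permutation p = 0.333, the smallest possible). The mitochondrial share of reads, which differed by genotype here, enters the scale of these sums. With scaling to reads outside mitochondrial genes the log2 ratio of all members' sums turned from 0.08 to -0.31, and with TMM scaling, which sets libraries by a trimmed mean of gene ratios, to -0.32. Sex and genotype cannot be told apart in these TRM libraries, for X-linked and other members alike.

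In MDMs no member was called, nor any gene, so the background was 0% lower and 0% higher of 10475 genes tested. An unadjusted p under 0.05 was reached by 1 of 73 members, Atp5d, against 6.74% of all genes. The KLG4 libraries lay below both KL libraries for 27 members, against 19.1% of all genes, and above both for 6, against 25.4%. The median of the members was -0.25 beside 0.02 over all genes.

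The size of the negative median, though not its sign, rested largely on 1 KL library. Without KL replicate 2 the median was -0.05 and no member was called. That library stood apart in several ways. Its summed neutrophil markers were lowest (10674 RPKM against 18125 to 23594), and its sums were highest for 8 macrophage markers (2989 against 1261 to 1428), 8 AT2 markers (381 against 41.4 to 159), 6 epithelial markers (261 against 18.4 to 73.4) and 4 fibroblast markers (10.4 against 1.35 to 2.01). It was also the library with low Xist, and the part of these differences in the result was not tested. Without KL replicate 1 the median was -0.53, and 23 members were called lower and 3 higher (Atp5k, Cox7a2 and Cox8a), beside 14.2% of all genes called lower and 11.4% called higher in that fit, with the spread taken from the KLG4 pair alone. Summed RPKM was 1951 and 2068 in KLG4, next to the 2043 of KL replicate 1 and below the 2823 of KL replicate 2 (exact permutation p = 0.667).

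Among members with a group mean of at least 5 RPKM the 3 lowest were Ndufa5 (21.6 and 45.5 RPKM in KL, 14.0 and 20.3 in KLG4, log2 -0.89 ± 0.43 SE), Atp5o, the peripheral stalk protein known as OSCP (8.73 and 15.2 against 5.72 and 7.48, log2 -0.81), and Ndufc2 (4.29 and 10.7 against 3.15 and 4.69, log2 -0.80). All had adjusted p of 0.68 or 0.69 in limma, and KL replicate 2 was the high library in each. The 3 highest were Atp5d, the delta subunit (4.08 and 5.10 against 8.72 and 7.01 RPKM, log2 0.76), Cox8a (24.8 and 15.7 against 25.5 and 27.1, log2 0.41) and Ndufb6 (8.34 and 8.48 against 9.61 and 11.9, log2 0.35), in none of which the genotypes overlapped.

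Several subunits have a second gene that is used in particular cells. Ndufa4l2, the hypoxia-linked paralog of Ndufa4, was the only member called higher in tumor cells. It was at 0.341 and 0 RPKM in KL and 1.30 and 1.70 in KLG4 (adjusted p = 0.0246). It met the filter on low values only through the KLG4 libraries, where it is high, so the call is given as a description, and the pseudocount sets the size of its difference. Its share of the pair was 1.34% and 0% in KL and 11.1% and 15.2% in KLG4. Cox4i2, the hypoxia- and lung-linked form of Cox4i1, was outside the rule and moved likewise, from 1.35 and 1.17 to 4.67 and 5.98 RPKM (log2 1.99, adjusted p = 0.00163), while Cox4i1 fell from 159 and 120 to 93.5 and 92.5 (log2 -0.57, adjusted p = 0.0389). Both genes are also known from pericytes and smooth muscle, and 7 markers of these cells were at a sum of 9.35 and 5.80 RPKM in KL and 60.5 and 66.2 in KLG4. In that list Acta2 was at 1.96 and 1.69 against 19.4 and 25.4 and Rgs5 at 1.44 and 0.960 against 0.997 and 0.705, and their part was not tested. Ndufa4l2 was not called with a pseudocount of 0.01, with quantile scaling or without either KLG4 library, and was not tested under a filter at a mean of 5 RPKM.

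Of the 3 genes for the c subunit that forms the rotor ring, Atp5g3 gave 59.0% and 60.8% of the RPKM in KL tumor cells and 59.7% and 59.4% in KLG4, Atp5g2 35.7% and 33.6% against 34.2% and 36.0%, and Atp5g1 the rest. In TRMs and MDMs Atp5g3 was again the main form, at 59.1% to 76.4%. Cox6b2, known from testis, made up 3.14% to 4.08% of its pair with Cox6b1 in tumor cells, 6.99% to 9.48% in TRMs and 1.11% to 2.18% in MDMs. The tissue-restricted forms Cox6a2, Cox7a1, Cox7b2, Cox8b and Cox8c were not among the 78 genes that the rule found in the 3 tables. Ndufab1, the acyl carrier protein of complex I, fell in tumor cells from 5.93 and 4.80 to 3.28 and 2.94 RPKM (log2 -0.76, adjusted p = 0.0255).

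Many nuclear respiratory chain genes are known to be regulated through sites for NRF1, for the ETS factor GABP and for YY1. RefSeq windows (build GRCm38.p6) of 250 bases before to 50 after the start were found for 66 of the 78 members and were searched on both strands. The NRF1 core GCATGCGC was in 15.2% of the members' windows, in 3.61% of the 17492 windows of protein-coding genes and in 2.80% of all 27025 windows. The ETS core CCGGAAGT was in 7.58%, 5.29% and 4%, the YY1 motif AAGATGGCG in 10.6%, 1.94% and 1.49%, and the CCAAT box in 43.9%, 39.0% and 37.9%. Windows of members called lower in tumor cells held the NRF1 core in 13.5% of 37 and the other tested members in 17.9% of 28. For YY1 the shares were 10.8% and 10.7%, and for the ETS core 10.8% and 3.57%, that is, 4 windows against 1. A match is a string of letters, not a site shown to be bound.

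The stretches below are shown because they set members that fell (the first 4) beside members that were not called (the last 2), with motifs in capitals, read 5′ to 3′ on the gene's own strand. In Atp5k and Uqcrc1 the letters GCGCATGCGC hold the NRF1 core on both strands, overlapping, and in Uqcrh the ETS core is read on the opposite strand.
Uqcrh (chr4:116075064-116075091, minus strand, ETS core): agtatgccgcACTTCCGGccaggtcgcc
Atp5k (chr5:108434430-108434459, minus strand, NRF1 core): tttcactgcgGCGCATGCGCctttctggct
Uqcr11 (chr10:80406808-80406897, minus strand, ETS and NRF1 cores): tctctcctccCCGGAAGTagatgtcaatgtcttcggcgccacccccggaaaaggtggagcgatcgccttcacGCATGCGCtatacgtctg
Ndufs6 (chr13:73328433-73328459, minus strand, YY1): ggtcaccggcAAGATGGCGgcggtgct
Uqcrc1 (chr9:108936668-108936697, plus strand, NRF1 core): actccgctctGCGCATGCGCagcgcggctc
Sdhb (chr4:140961207-140961234, plus strand, NRF1 core): agcccagtggGCATGCGCcctacgggcc
The NRF1 core thus stood both in Atp5k, which fell 4.82-fold in tumor cells, and in Uqcrc1 and Sdhb, at log2 -0.18 and 0.03.

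Most subunits outside the rule were also lower in KLG4 tumor cells, as were most mitochondrial and most cytosolic ribosomal protein genes. Of 8 subunits and close partners outside the rule 6 were called lower and 1 higher (Cox4i2), and the lowest was Higd1a, a complex IV factor, at 16.2 and 11.4 against 6.21 and 6.49 RPKM. Of 78 mitochondrial ribosomal protein genes 34 were called lower and none higher, with a median of -0.49 and the largest fall in Mrpl15 (log2 -1.81). Of 89 genes named as cytosolic ribosomal proteins, S6 kinase genes left out, 32 were called lower and 1 higher, with a median of -0.48. The median of the subunit genes was -0.58.

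Genes that build the complexes or feed them were called lower at shares between 7.14% and 23.4%, beside 19.6% of all genes tested (20.6% were called higher). Of 47 assembly factors tested 11 were called lower (23.4%) and 1 higher, with a median of -0.23. The largest fall was in Pet100, a complex IV factor, from 60.1 and 39.4 to 18.1 and 15.3 RPKM, and the rise was in Sdhaf1, from 7.19 and 6.40 to 11.3 and 12.3. Of 13 enzyme genes of the TCA cycle 2 were called lower (15.4%), Idh3a (log2 -0.57) and Suclg1 (log2 -0.46). Of 14 biogenesis regulators tested 1 was called lower (7.14%), Yy1 (28.0 and 28.1 against 19.0 and 21.7 RPKM), and Mterf4 was called higher. Nrf1 was at 3.98 and 4.06 against 3.30 and 3.04 RPKM (adjusted p = 0.16), Gabpa at 10.2 and 11.3 against 10.9 and 12.2, and the coactivators Ppargc1a and Ppargc1b at or below about 1 RPKM in all 4 libraries and untested. In TRMs no regulator was called. Pprc1 was at 1.22 and 1.64 RPKM in KL and 5.27 and 4.10 in KLG4 (log2 1.64, adjusted p = 0.059), Yy1 at 8.55 and 10.6 against 21.5 and 22.1 (log2 1.19, adjusted p = 0.053), opposite in sign to its tumor cell difference, and Ppargc1b at 3.56 and 3.56 against 6.78 and 6.37 (adjusted p = 0.089).

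The 13 subunit genes of mitochondrial DNA were called in both directions in tumor cells. In tumor cells 7 were called higher, led by mt-Nd4 (log2 1.36), and 4 lower, mt-Co2, mt-Co3, mt-Atp6 and mt-Atp8. Of all genes tested there 20.6% were called higher and 19.6% lower. mt-Nd4 was at 3403 and 4472 against 10214 and 9831 RPKM and mt-Co2 at 275 and 167 against 35.8 and 32.4, and nuclear copies of these genes exist, so their values are uncertain. In TRMs 12 of the 13 were called lower, against 0.437% of all genes, with a median of -2.46 beside 0.10 for the nuclear members. In MDMs none was called, 12 had an unadjusted p under 0.05, against 6.74% of all genes, and the median was -1.76 beside -0.25. These values were not scaled for the mitochondrial share.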

How the data were processed

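The authors deposited RPKM values, in a separate table for each population, and per the labels reads were handled with Trim Galore (0.6.4), HISAT2 (2.0.5) and featureCounts (2.0.0). Libraries were prepared from poly(A) RNA without strand and with a transposase kit. The tables' own fold changes and p-values were not used, and the DESeq2 test named in the methods could not be applied to RPKM. Each table was tested alone with limma (3.58.1, R 4.3.3, with trend) on log2(RPKM + 0.1) for genes of at least 1 RPKM in at least 2 of 4 libraries, two-sided, with Benjamini-Hochberg adjustment over all genes tested. The test was checked on simulated data with equal spread in both genotypes. In tumor cells the real pairs differed in spread, so this check does not bear on those calls. Depth was recovered from RPKM steps (at least 99.98% of low values whole within 0.05). Transcript lengths are medians of GENCODE M21 basic transcripts. The members and lists were chosen with earlier results of these data known. Values per library are given for the 3 highest and 3 lowest members of each population with a group mean of at least 5 RPKM, for paralogs, for complex II, for the most abundant member of each complex and for others picked after their values were seen. Alternatives covered pseudocount, filter, scaling, trend, block, left-out libraries and limma-voom. Another 5 samples, of T cells and monocytes, were not used here. An allele shared by all groups and the values of 1 member are not reported here.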

Additional observations from a re-analysis of the deposited data

Results flagged for a closer look

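Among 32 named members and 6 summed levels, 12 of 106 comparisons between 2 populations had both KLG4 libraries on opposite sides of both KL libraries. The named members were picked partly as the extremes of each population. Over all members tested in both, such opposite directions held for 20 of 75 in tumor cells against TRMs (24.5% of all genes), 5 of 73 in tumor cells against MDMs (12.8%) and 3 of 73 in TRMs against MDMs (7.19%). These differences between populations were not tested. The values are differences between the log2 differences of 2 populations. Tumor cells against TRMs gave -2.96 for Ndufa12 (log2 -2.08 and 0.87), -1.83 for Atp5e, -1.53 for Cox5b and -0.70 for Sdha. The summed RPKM gave -0.77 for all members, -0.49 for complex II, -1.03 for complex IV and -0.46 for complex V. Tumor cells against MDMs gave -1.36 for Cox8a, -0.91 for Ndufb6 and -1.21 for Cox5b, and TRMs against MDMs gave 1.14 for Atp5e. The share of mitochondrial reads differed in opposite directions between the genotypes in tumor cells and in the other populations, and these values include it. With scaling to reads outside mitochondrial genes the log2 ratio of all members' sums was -0.58 in tumor cells and -0.31 in TRMs, so their opposite direction was lost. Under that scaling the log2 differences of Ndufa12, Atp5e, Cox5b and Sdha stayed negative in tumor cells and positive in TRMs, and the sums of single complexes were not rescaled.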

How the results depend on the processing

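In tumor cells 41 members were called lower, and 29 to 48 under the other scalings, filters, pseudocounts, the length and GC corrections added after the data were seen, limma without a trend and limma-voom, and 4 to 59 when 1 library was left out. The 1 call higher, Ndufa4l2, went to 0 with a pseudocount of 0.01, with a filter at a mean of 5 RPKM, which removes the gene, and with quantile scaling, and was 0 to 1 without 1 library (0 without either KLG4 replicate). The median was -0.32 with the length trend removed and -0.78 to -0.42 without 1 library, and the log2 ratio of summed RPKM was -0.85 to -0.52 without 1 library. In TRMs the median of 0.10 became -0.23 with quantile scaling, -0.29 with TMM scaling, -0.29 with scaling to reads outside mitochondrial genes, -0.14 with the length trend removed and -0.31 with the GC trend removed, since these settings take out the shift of all genes. The TRM log2 ratio of sums, 0.08, became -0.32 with TMM and -0.31 with scaling outside mitochondrial genes. Members called higher in TRMs were 0 to 1 without 1 library and 1 with limma-voom. In MDMs 0 to 23 members were called lower and 0 to 3 higher without 1 library, with medians from -0.53 to -0.050 and log2 ratios of sums from -0.49 to -0.024. Placing Ndufa4 and Ndufa4l2 in complex I left the medians of complexes I and IV at -0.71 and -0.69 in tumor cells. The labels do not say that replicate numbers pair the samples, and same-numbered libraries correlated at 0.02, -0.06 and 0.05 in tumor cells, TRMs and MDMs. With the replicate block 39 members were called lower in tumor cells and 1 higher, and 0 in the other populations. Depth limits members near 1 RPKM, such as Ndufa4l2 and Atp5g1.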
